A study of Mus musculus with 12 samples.

Results

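Ly6a encodes a small glycoprotein of the outer cell surface, also known as stem cell antigen Sca-1, and was followed here through 12 RNA libraries of mouse embryonic stem cells. It is 1 gene of 56691 mouse gene IDs in the deposited tables and 1 of 13230 genes with enough counts to be tested. It was chosen by its measured levels in these same libraries, for a large rise in 2i and a partial loss with 50 µM of an MRE11 inhibitor. Its values in those comparisons are therefore given as a description, without a test. The gene (ENSMUSG00000075602) is protein coding and lies on the minus strand of chromosome 15 at 74994877 to 74998031 of the mouse build GRCm38. It has 6 annotated transcripts, and 0 other annotated genes overlap it.

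The cells were R1, an established male embryonic stem cell line of 129/Sv background, grown on gelatin in medium with serum and the cytokine LIF. Libraries made at day 0 in that medium form the group the labels call primed. The other libraries were made after 6 days of 2i, after 6 days of 2i with 25 µM of the MRE11 inhibitor, or after 6 days of 2i with 50 µM of it, with 3 libraries in each group. 2i stands for the pair of MEK and GSK3 inhibitors used to bring such cells towards a naive state, and the labels do not name the MRE11 inhibitor. No group stayed in serum with LIF until day 6, so 2i, time in culture and any other change of medium cannot be told apart. Whether replicates were grown as separate cultures is not stated, and p-values here reflect only how much libraries of a group differed, which may be technical. RNA came from bulk cultures, in which fewer cells that express a gene and less RNA per cell cannot be told apart.

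The Ly6 superfamily shares a compact, cysteine-rich fold, and most members are attached to the membrane by a glycosylphosphatidylinositol (GPI) anchor that is built in the endoplasmic reticulum. Ly6a is known best as a marker used to isolate mouse haematopoietic stem cells, and it is also found on other stem and progenitor cells, endothelium and lymphocytes. In blood and endothelial cells it is known to be induced by interferons, and a dense cluster of related genes surrounds it in the mouse genome.

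Ly6c1 is a relative in that cluster and, among the other tested genes there, the one with the largest rise in 2i. Over the whole coding sequence, 76.5% of its bases aligned to Ly6a are identical. That is fewer than for Ly6i (86.4%), Ly6f (84.4%), Ly6c2 (83.6%) and Ly6g (83.2%). The first 180 coding bases of Ly6a and Ly6c1, from the start codon on, are shown because their likeness bears on how far reads of the genes can be told apart. They were read from the GRCm38 reference and its annotation, and capitals mark the 26 positions at which the sequences differ.
Ly6a: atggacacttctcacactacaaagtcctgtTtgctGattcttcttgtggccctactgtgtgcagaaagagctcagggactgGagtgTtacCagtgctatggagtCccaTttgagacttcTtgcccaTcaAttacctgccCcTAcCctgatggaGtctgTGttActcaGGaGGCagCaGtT
Ly6c1: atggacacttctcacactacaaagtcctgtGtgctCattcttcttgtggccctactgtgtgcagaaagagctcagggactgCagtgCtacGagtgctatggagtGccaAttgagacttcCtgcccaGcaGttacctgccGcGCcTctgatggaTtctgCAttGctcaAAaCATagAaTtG

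The library kit reads the 3′ ends of transcripts, so the last 400 bases of each transcript matter more for counting than the coding start. Of 425 distinct 50-base stretches in the 3′ ends of Ly6a transcripts, 20 (4.71%) also occurred in transcripts of another gene, I830127L07Rik or Ly6c2. For Ly6c1 the share was 28.7%, in Ly6c2. Ly6c1 is therefore reported as uncertain, since the handling of shared reads is not stated. The corresponding share was 0 for the family members Ly6e, Ly6k and Cd59a. With 30-base stretches the share was 15.7% for Ly6a (70 of 445, in 8 other genes that include Ly6c1), 41.5% for Ly6c1, 1.57% for Ly6e and 0 for Ly6k and Cd59a. The read length is not stated in the labels, so which share applies is open, and Ly6a carries this uncertainty to a smaller degree than Ly6c1.

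Ly6a was scarce in primed cells and abundant after 6 days of 2i. Levels are given as CPM, which are counts scaled to library size, here with TMM factors that adjust for composition. The 3 primed libraries held 92, 66 and 77 Ly6a counts, or 14.3, 11.1 and 12 CPM. The 2i libraries held 1562, 2082 and 1707 counts, or 239.9, 306.7 and 275.4 CPM. Every 2i library lay far above every primed library, and the smallest ratio between a 2i and a primed library was 16.8. The group means were 12.5 ± 1.65 CPM in primed cells and 274 ± 33.4 CPM in 2i (SD, n = 3), a ratio of 22.0, and the fitted difference was 4.45 ± 0.17 on the log2 scale (SE). Between 7258 and 8008 genes stood above Ly6a by counts in the primed libraries, and between 536 and 727 in the 2i libraries.

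With 25 µM of the inhibitor added to 2i, Ly6a kept the level of 2i alone within the spread of the libraries. The libraries held 1516, 1937 and 2175 counts, or 237.8, 315.1 and 308.9 CPM, with a mean of 287 ± 43.0 CPM (SD, n = 3). These values overlapped with those of 2i alone, and the ratio of the means was 1.05. The difference on the log2 scale was 0.07 ± 0.13 (SE), with an adjusted p of 0.871 by the quasi-likelihood F test of edgeR with Benjamini-Hochberg adjustment over all genes tested. Its 95% interval ran from −0.20 to 0.34, so that the fit leaves room for anything from 0.869 to 1.26 times the level in 2i. That fit did not pair libraries by replicate number, and a fit that did gave 0.06 with an edgeR adjusted p of 0.703. The 25 µM libraries played no part in the choice of Ly6a, whereas the 2i libraries did. Over 18 other settings and library sets the adjusted p lay between 0.581 and 0.998.

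At 50 µM Ly6a was lower than in 2i alone, while remaining far above the primed level. The libraries held 714, 1128 and 1083 counts, or 125.8, 168.3 and 175.3 CPM, and averaged 156 ± 26.8 CPM (SD, n = 3). All 3 lay below every library of 2i alone and of 25 µM, and all 3 lay above every primed library. The mean was 57.1% of that in 2i and 54.5% of that at 25 µM, and it stood at 12.6 times the primed mean. On the log2 scale the fitted differences were −0.81 ± 0.13 from 2i and −0.88 ± 0.13 from 25 µM (SE). Measured in CPM, 55.1% of the rise from primed to 2i was still present at 50 µM, and measured in log2 units 81.9% was.

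**Figure D1:**
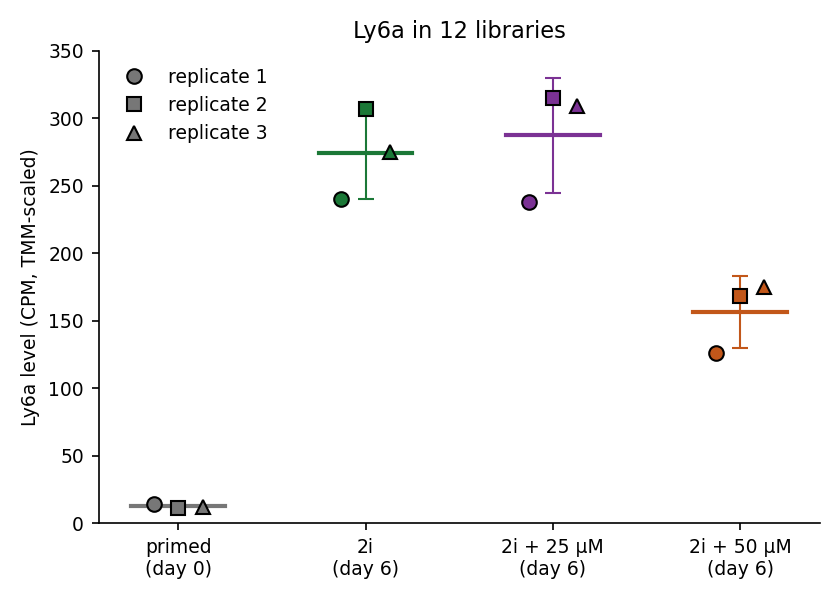
Ly6a level in CPM (vertical axis, linear from 0) in each of the 12 libraries, by group; marker shapes give the replicate number, horizontal bars the mean of 3 libraries and vertical bars ± SD. The primed libraries sit between 11.1 and 14.3 CPM, those of 2i and 25 µM between 237.8 and 315.1 CPM with overlap, and those of 50 µM between 125.8 and 175.3 CPM.

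Replicate 1 was the lowest of its group in 2i, at 25 µM and at 50 µM, at 239.9, 237.8 and 125.8 CPM, whereas in primed cells it was the highest. Within replicate numbers, the level at 50 µM was 0.525, 0.549 and 0.637 times that in 2i, and the level at 25 µM was 0.991, 1.03 and 1.12 times. The spread of CPM within a six-day group was 12.2% to 17.1% of its mean, and counting error alone would give 2.31% to 3.20%. In primed cells the spread was 13.2% against a counting error of 11.3%.

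The order of the 4 groups was thus primed, 50 µM, 2i and 25 µM, and the last pair did not differ beyond its spread. Ly6a ranked 34 of 13230 genes by the size of its rise. Among the 8781 genes that averaged at least 3 in log2 CPM it ranked behind Gm31659 (4.58) and 5330411J11Rik (4.57) and ahead of Pglyrp1 (4.25), Plagl1 (4.24) and Meis2 (4.18). These are genes just inside and just outside its position, named from their values. No gene with a larger rise reached more than 52.8 CPM in 2i, compared with 274 CPM for Ly6a. The partial loss was less exceptional, since 1006 tested genes had a larger fall at 50 µM, 156 of them at that level or above.

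Library totals ranged from 5894561 to 7060126 counts. The labelled cell type was matched by its markers, with a summed level of 10 pluripotency markers between 5080 and 5770 CPM in every library. Within that sum Nanog and Esrrb rose in 2i and Tdgf1 and Epcam fell by edgeR. These were 2 of 10 in each direction, beside 20.0% of all genes higher and 20.4% lower. Blood markers other than Kit, a receptor that stem cell lines express too, summed to 34.3 to 37.8 CPM before treatment, 25.2 to 31.1 in 2i alone, 22.7 to 31.8 with 25 µM and 21.9 to 23.0 with 50 µM, and Adgre1 was at 0 throughout. Endothelial markers other than Pecam1 summed to 14.8 to 16.3 CPM before treatment, 27.2 to 36.8 in 2i alone, 32.0 to 38.1 with 25 µM and 26.3 to 31.5 with 50 µM. They were thus higher in 2i than in primed cells, like Ly6a. Of 5 tested with Pecam1 included, 4 rose in 2i and 1 fell by edgeR, beside 20.0% of all genes higher and 20.4% lower. Cdh5 and Emcn were at 0 in all libraries. The part of endothelial markers in the rise of Ly6a was not tested. Fibroblast markers other than Vim summed to 82.9 to 237 CPM before treatment, 16.6 to 32.6 in 2i alone, 9.51 to 10.5 with 25 µM and 3.13 to 6.31 with 50 µM. They were thus lower in 2i than in primed cells, opposite to Ly6a, and lower at 50 µM than in 2i, like Ly6a. At 50 µM 2 of the 7 measured, Thy1 and Col1a1, fell against 2i by edgeR and 0 rose, beside 8.07% of all genes lower and 7.01% higher. DESeq2 called 3 of the 7 there and limma voom 2. The part of fibroblast markers in the lower Ly6a level at 50 µM was not tested. Primitive endoderm markers were also lower at 50 µM: all 8 summed to 51.8 to 123 CPM before treatment, 25.0 to 57.4 in 2i alone, 14.8 to 18.8 with 25 µM and 12.1 to 16.2 with 50 µM. Without Col4a1, the highest of them, the sums were 7.98 to 8.87 in 2i alone and 5.07 to 5.67 with 50 µM. Of the 3 with enough counts, edgeR called 0 at 50 µM against 2i, beside 15.1% of all genes. DESeq2 and limma voom each called 1. The part of primitive endoderm markers was not tested either. Trophoblast markers summed to 132 to 301 CPM before treatment and 13.5 to 23.5 in the six-day libraries.

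The rest of the Ly6 superfamily changed in both directions in 2i. Of 45 other members listed, 40 were found in the tables, 34 had at least 1 count and 10 had enough counts to be tested; none of the other 24 had more than 42 counts over the 12 libraries. In 2i against primed cells 3 of the 10 rose, 3 fell and 4 were not called at an edgeR adjusted p below 0.05. Over all genes 40.4% were called, 20.0% higher and 20.4% lower, so these shares are not far from the background. The median log2 change was 0.20 over the 10 genes and −0.01 over all genes tested.

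The members that rose all came from the chromosome 15 cluster. Ly6c1, a marker of monocytes and some endothelium (75044018 to 75048830), measured 0.311, 0.504 and 0.623 CPM in primed cells and 5.37, 5.16 and 4.03 CPM in 2i. The groups did not overlap, and the rise was 3.29 ± 0.46 on the log2 scale (edgeR adjusted p = 5.31e-06). It rests on 2 to 4 counts per primed library and 25 to 35 per 2i library, and Ly6c1 remained at 1.77% of the Ly6a level in 2i by counts not adjusted for length. Ly6e, a widely expressed member known for its role in virus entry, went from 52.1, 69.6 and 59.0 CPM to 103, 122 and 94.5 CPM, without overlap. Its rise of 0.83 ± 0.14 had an edgeR adjusted p of 7.77e-05. Ly6k, a member known from germ cells, went from 1.55 ± 0.408 to 3.76 ± 1.25 CPM (SD, n = 3), a rise of 1.28 ± 0.37 with an edgeR adjusted p of 0.00878, which became 0.0731 without 2i replicate 2. Ly6c1 and Ly6k had enough counts to be tested mainly through libraries of 2i alone and of the lower dose. Their place among the tested genes was therefore not independent of their rise.

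The members that fell lie on other chromosomes. Plaur, the urokinase receptor, measured 12.7, 10.4 and 9.66 CPM in primed cells and 1.23, 0.589 and 0.807 CPM in 2i. This was a drop of 12.3-fold without overlap (edgeR adjusted p = 1.18e-08). Ly6g6c, from the family's group of genes in the major histocompatibility region, fell from 8.34 ± 3.56 to 1.03 ± 0.18 CPM (edgeR adjusted p = 1.48e-06). Lypd6, a modulator of Wnt signalling and nicotinic receptors, fell by 1.26 ± 0.42 on the log2 scale (edgeR adjusted p = 0.0202), a call lost in 5 of the alternatives, with adjusted p up to 0.118 without 2i replicate 1. Ly6g6c and Lypd6 had enough counts to be tested only through primed libraries, so their place among the tested genes was not independent of their fall. Cd59a and Cd59b, inhibitors of complement, and Ly6g6d and Ly6g6e were not called, with differences between −0.68 and 0.62.

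No family member passed the test at 25 µM. The edgeR test called 0 of 10 against 2i, DESeq2 called 0 and limma voom 0, and 1 had an unadjusted p below 0.05. The background was low as well, with 0.937% of all genes called, 0.454% higher and 0.484% lower. Ly6c1 stood at 2.82, 2.93 and 3.41 CPM, below all of its 2i values, with a difference of −0.66 ± 0.33 (edgeR adjusted p = 0.402). Ly6e stood at 122, 122 and 88.2 CPM and overlapped with 2i alone.

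At 50 µM 3 of the 10 fell against 2i and 0 rose, compared with 15.1% of all genes called, 8.07% lower and 7.01% higher. Of those that fell, Ly6c1 and Ly6k had enough counts to be tested mainly through libraries of 2i alone and of the lower dose. The tested set was thus partly formed by high levels in 2i, and the number that fell includes this. Ly6c1 measured 1.41, 0.149 and 0.971 CPM, which is 8, 1 and 6 counts, below every library of 2i alone. It fell by 2.55 ± 0.42 on the log2 scale (edgeR adjusted p = 0.000306). Ly6k was at 1.06, 1.04 and 1.13 CPM, below its levels in 2i and also below each of its primed values, and fell by 1.79 ± 0.40 (edgeR adjusted p = 0.0043). Cd59a fell from 5.37, 6.48 and 6.94 CPM in 2i to 3.00, 2.83 and 2.91 CPM, or by 1.10 ± 0.23 (edgeR adjusted p = 0.00302). Its levels at 50 µM were lower than in any primed library as well.

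Ly6e behaved less clearly at 50 µM. It measured 82.5, 93.5 and 75.4 CPM, below all 3 libraries of 2i alone, and the difference was −0.35 ± 0.13 with an edgeR adjusted p of 0.0915. With the replicate number as a block the adjusted p was 0.0032, so this call depends on the fit. Between 50 and 25 µM, Ly6c1 alone of the 10 was called (−1.89 ± 0.45, edgeR adjusted p = 0.0389), where 1.16% of all genes were called, 0.975% lower and 0.181% higher. That call was lost in several alternatives, with an adjusted p of up to 0.163, reached without 25 µM replicate 3. The median log2 change of the 10 genes was 0.03 at 25 µM and −0.39 at 50 µM against 2i, beside 0 and 0.01 over all genes tested.

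**Figure D2:**
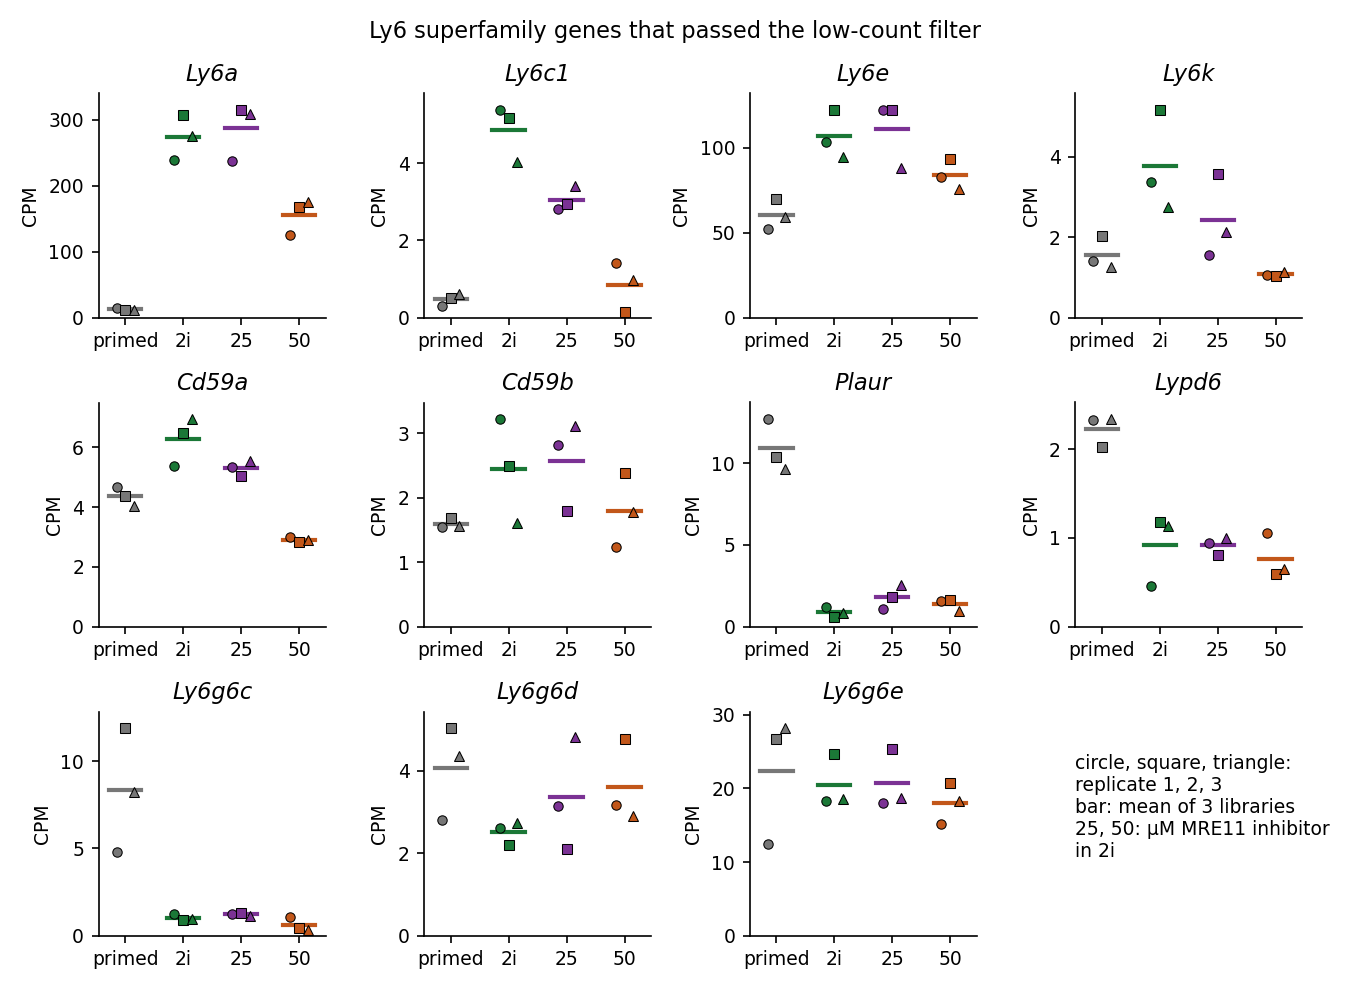
Levels in CPM (vertical axes, each from 0 and on its own scale) of Ly6a and the 10 other Ly6 superfamily genes with enough counts to be tested, in each library by group; marker shapes give replicate numbers and bars the mean of 3 libraries. Ly6c1 and Ly6k share with Ly6a a high level in 2i and a low one at 50 µM on scales that reach only a few CPM, while Plaur, Lypd6 and Ly6g6c were highest in primed cells.

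The genes around Ly6a did not all follow it. Within 500 kb on chromosome 15 lie 50 other annotated genes, of which 29 had a count and 6 were tested. Of these, 3 belong to the superfamily (Ly6e, Ly6c1 and Ly6k, above). Of the other 3, Arc and Jrk lie on one side of the cluster, and Them6 lies within it, next to the family members Psca and Slurp1. None of them was higher in 2i. Arc, a synaptic immediate early gene, fell from 13.5 ± 1.23 to 8.12 ± 1.15 CPM (SD, n = 3), a change of −0.73 ± 0.18 (edgeR adjusted p = 0.00207). Them6 fell by 0.86 ± 0.26 on the log2 scale (edgeR adjusted p = 0.01, and 0.0611 without 2i replicate 3). Jrk was at 4.12 CPM in primed cells and 4.11 CPM in 2i. At 50 µM against 2i these 3 genes differed by 0.09 ± 0.19, 0.07 ± 0.28 and −0.47 ± 0.29, and none was called by edgeR.

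**Figure D3:**
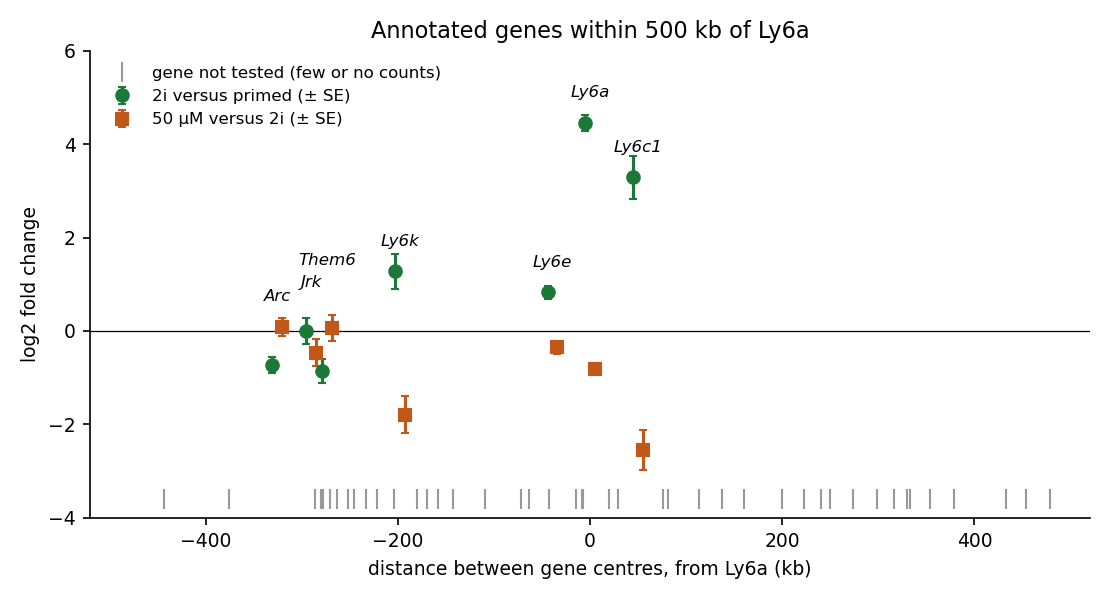
Log2 fold changes ± SE (vertical axis) of Ly6a and the 6 tested genes within 500 kb, against the distance of each gene's centre from that of Ly6a in kb (horizontal axis); circles show 2i versus primed and squares 50 µM versus 2i. Ticks at the bottom mark genes with too few counts to be tested. The Ly6 genes lie above 0 in 2i and below 0 at 50 µM, while Arc and Them6 lie below 0 in 2i and near 0 at 50 µM.

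Ly6c2, the copy that shares 3′ sequence with Ly6c1, had too few counts to be tested. It had 0 counts in the primed libraries, 8, 3 and 1 in 2i, 1, 3 and 3 at 25 µM, and 1, 0 and 2 at 50 µM.

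Interferon-responsive genes, the class with which Ly6a is commonly grouped, mostly fell in 2i. Of 31 measured, 23 fell, 3 rose and 5 were not called by edgeR, beside 20.4% of all genes lower and 20.0% higher. The median log2 change was −1.51, beside −0.01 over all genes tested. Psmb8, Gbp2, Isg15, Gbp3, Gbp7, Oasl2, Cxcl10 and Zbp1 had 0 to 2 counts in each 2i library. They had enough counts to be tested only through primed libraries, so their fall was set by the filter. Oas3, Isg20 and Igtp, with 2 to 13 counts in each 2i library, also needed the primed libraries to be tested. The totals above include all of these genes. Psmb10, an immunoproteasome subunit, measured 85.0, 90.4 and 81.6 CPM in primed cells and 20.0, 22.2 and 19.8 CPM in 2i (−2.05 ± 0.11, edgeR adjusted p = 3.09e-12). Psmb8, another such subunit, was at 7.32 to 10.6 CPM in primed cells and had 0 counts in all 9 six-day libraries. Against a floor of 3 counts over the group, it was at least 59.5-fold lower in 2i. Ddx58, which encodes the RNA sensor RIG-I, fell from 46.5 ± 6.84 to 12.6 ± 1.67 CPM (SD, n = 3). The members that rose were Xaf1 (1.56 ± 0.16), Oas1a (1.27 ± 0.26) and B2m (0.55 ± 0.12), named after their values were seen.

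**Figure D4:**
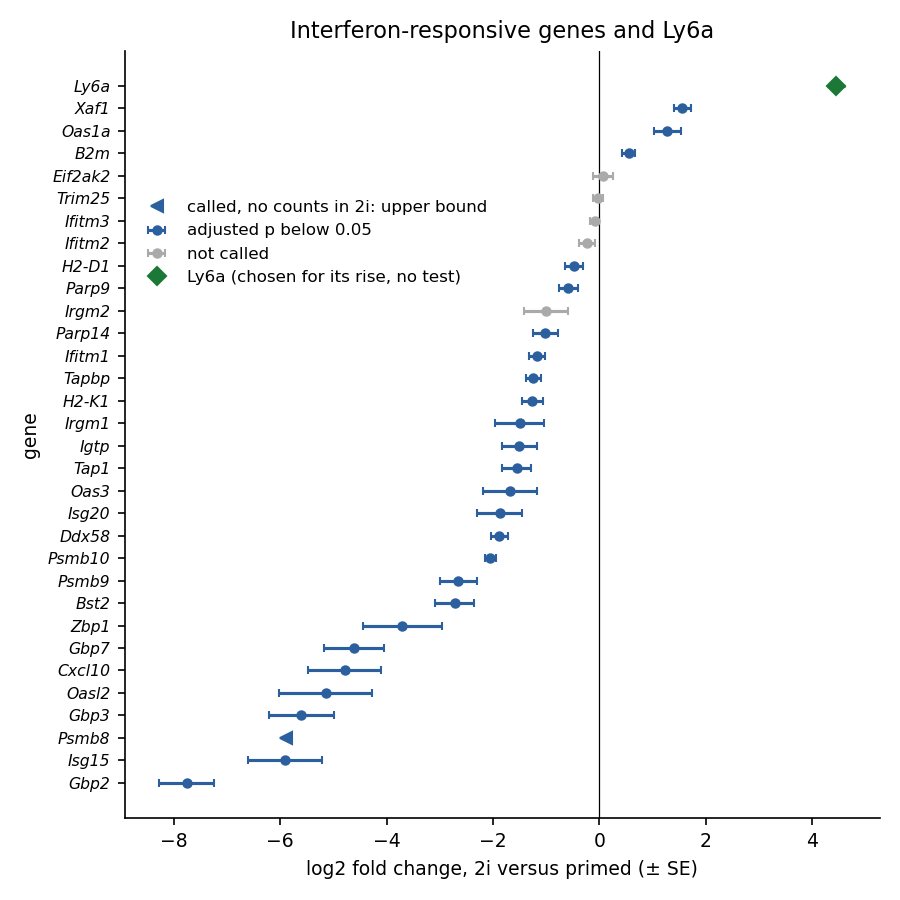
Log2 fold change in 2i versus primed cells ± SE (horizontal axis) of the 31 interferon-responsive genes measured and of Ly6a (diamond); dark points were called by edgeR, grey points were not, and the triangle is an upper bound for Psmb8, which had 0 counts in 2i. Of the list, 23 genes lie to the left and were called and 3 lie to the right and were called. Several on the left passed the low-count filter only through primed libraries. Ly6a is drawn for reference only, since it was chosen for its rise.

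At 25 µM 0 of the 31 were called against 2i by edgeR, DESeq2 or limma voom, and 2 had an unadjusted p below 0.05. The background was low there as well, with 0.937% of all genes called by edgeR. At 50 µM 2 were higher and 2 lower, near the 15.1% of all genes called there. Among them Ddx58 rose by 0.77 ± 0.17 (edgeR adjusted p = 0.00368), opposite in direction to Ly6a. Oas1a, with 9.52, 13.7 and 11.6 CPM in 2i and 6.34, 6.12 and 11.5 CPM at 50 µM, overlapped between the groups and was not called (edgeR adjusted p = 0.136).

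Genes that carry the interferon signal were called about as often as genes at large. Of 13 measured, 3 rose in 2i, 2 fell and 8 were not called by edgeR, beside 20.0% of all genes higher and 20.4% lower. Irf1, a transcription factor induced by interferon, fell from 97.0 ± 7.42 to 30.2 ± 4.41 CPM (edgeR adjusted p = 5.94e-11), and Socs1, a feedback inhibitor of the pathway, fell by 1.27 on the log2 scale. Jak1, the kinase shared by interferon and LIF receptors, rose by 0.50 and Irf9 by 0.69. At either dose 0 of the 13 were called against 2i by edgeR, DESeq2 or limma voom, and 1 had an unadjusted p below 0.05 at each. Over all genes edgeR called 0.937% at 25 µM and 15.1% at 50 µM.

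Genes of the pathways that LIF and 2i act on were measured beside Ly6a, and 20.0% of all genes rose and 20.4% fell in this comparison. Of 17 ERK targets measured, 16 fell and 0 rose, with a median of −1.96. Among them Egr1, Spry4 and Dusp4 had 0 to 8 counts in each 2i library. These genes had enough counts to be tested only through primed libraries. Their fall was thus set by the filter, and the totals of this list include it. Of 12 Wnt targets 6 rose and 3 fell, among them Axin2, a negative regulator of the pathway, which rose by 1.74. Genes of the LIF and STAT3 pathway were split, with 5 of 18 higher and 7 lower. That list holds targets and also parts of the pathway itself, such as Lifr, Il6st and Stat3. The naive factor Tfcp2l1 rose by 2.56 on the log2 scale, and the kinase Pim1 rose by 0.99, while Junb fell by 1.71.

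At 50 µM Pim1 fell from 211, 188 and 204 CPM to 149, 125 and 141 CPM without overlap (−0.54 ± 0.12, edgeR adjusted p = 0.00615). Over all genes 8.07% were lower and 7.01% higher there. Of the 18 LIF and STAT3 pathway genes 3 were lower and 2 higher than in 2i, and with the replicate block 5 were lower and 4 higher. Of the 12 Wnt targets 4 were lower and 1 higher, among them Sp5 (−2.60), Apcdd1 (−1.11) and Axin2 (−0.74). Of the 17 ERK targets 1 was lower and 2 higher, a total near that background.

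Ly6a reaches the surface through a GPI anchor, and the genes that build the anchor were measured beside it. Of 31, 6 rose in 2i, 0 fell and 25 were not called by edgeR. Over all genes 20.0% were called higher, 20.4% lower and 40.4% in either direction. The share that rose was thus close to that of all genes, while the share that fell and the share called were lower. Piga, part of the enzyme for the first step, went from 19.9, 21.2 and 21.2 CPM to 45.8, 46.7 and 55.8 CPM. The groups did not overlap, and the rise of 1.25 ± 0.12 had an edgeR adjusted p of 2.23e-08. Pigyl rose by 0.70, Pigh by 0.89 and Pigk, a subunit of the transamidase that attaches the anchor, by 0.58. At 25 µM 0 of 31 were called by edgeR, DESeq2 or limma voom, and 3 had an unadjusted p below 0.05. Over all genes edgeR called 0.937% at that dose. At 50 µM 1 was lower and 2 were higher, below the 15.1% of all genes called there. Pigyl fell by 0.62 ± 0.10 (edgeR adjusted p = 0.000189) and Gpaa1, another transamidase subunit, rose by 0.44 ± 0.11 (edgeR adjusted p = 0.00835). Piga kept to 43.3 to 50.7 CPM there, within its range in 2i apart from replicate 1.

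Other GPI-anchored proteins followed several patterns. Of 32 measured, 13 rose in 2i and 9 fell, beside 20.0% and 20.4% of all genes, and the median was 0.36. Alpl, the alkaline phosphatase used as a stem cell stain, rose from 47.0 ± 2.24 to 181 ± 7.01 CPM (edgeR adjusted p = 3.82e-13) and stood at 185 ± 12.3 CPM at 50 µM. Rgma, a co-receptor for bone morphogenetic proteins, went from 2.02, 1.51 and 1.56 CPM to 10.6, 16.9 and 14.7 CPM in 2i and 6.34, 5.67 and 8.90 CPM at 50 µM. It thus rose by 3.03 ± 0.26 and then fell by 1.01 ± 0.21 (edgeR adjusted p = 5.07e-09 and 0.0022). Thy1, a surface marker of fibroblasts and neurons, fell by 4.05 ± 0.43 at 50 µM against 2i (edgeR adjusted p = 2.58e-06), from 4.77 to 0.275 CPM. Ncam1 rose at 50 µM by 0.75 ± 0.10 (edgeR adjusted p = 5.5e-05). In all 5 of the 32 fell and 3 rose at 50 µM, beside 8.07% and 7.01% of all genes.

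Among 25 surface proteins of stem cells measured besides Ly6a, 12 rose and 8 fell in 2i, beside 20.0% and 20.4% of all genes. Kit, the stem cell factor receptor that is paired with Sca-1 when blood stem cells are sorted, went from 28.1, 38.5 and 40.8 CPM to 174, 206 and 168 CPM. It rose by 2.35 ± 0.13 (edgeR adjusted p = 1.71e-11). At 50 µM it measured 139, 151 and 132 CPM, a fall of 0.38 ± 0.12 with an edgeR adjusted p of 0.0391 that reached 0.165 without 2i replicate 2. Cd9, a tetraspanin, rose 2.49-fold in 2i and differed by 0.02 ± 0.10 at 50 µM. Epcam, an adhesion molecule, fell by 1.85 ± 0.11 in 2i. At 50 µM 3 of the 25 were higher and 4 lower than in 2i, beside 7.01% and 8.07% of all genes.

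The genes of the MRE11 complex, whose nuclease is the inhibitor's named target, changed little by comparison. Mre11a was at 61.2 ± 1.89 CPM before treatment, 46.7 ± 4.53 in 2i alone, 50.6 ± 4.82 with 25 µM and 51.5 ± 1.57 with 50 µM (SD, n = 3). It fell by 0.39 ± 0.10 in 2i (edgeR adjusted p = 0.00431) and was not called at either dose. Rad50 fell by 0.53 ± 0.09 in 2i and by a further 0.37 ± 0.09 at 50 µM (edgeR adjusted p = 0.00973). At 25 µM its difference from 2i was −0.36 ± 0.09, without overlap of the groups, with an edgeR adjusted p of 0.0693; DESeq2 called it. Nbn was not called in any of these comparisons. RNA levels of these genes do not measure the activity of the complex.

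Genes whose levels ran most like Ly6a were found by Pearson r of log2 CPM among 8441 named genes that averaged at least 3 in log2 CPM. Over the 12 libraries the first were Ptgfrn, Slc25a20, Crxos and Lpar1, each with r of 0.996, followed by Aspa, Meis2, Ak4, Tdrp, Zc3hav1 and Rnf7. The primed libraries stand apart from the rest for all of these, and 583 genes (6.91%) reached an r of 0.9. All 10 rose in 2i, by 1.25 to 4.18 on the log2 scale. This follows from their choice by likeness to a gene picked for its rise. Crxos, a homeobox gene of the early embryo, went from 9.48, 10.8 and 10.9 CPM to 137, 162 and 155 CPM in 2i and 89.9, 96.1 and 100.0 CPM at 50 µM, with none of these groups overlapping.

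Over the 9 six-day libraries alone 87 genes (1.03%) reached an r of 0.9. The first 10 were Ptgfrn (0.977), Dpp4 (0.968), Parm1 (0.968), Tfap2a (0.966), Actr3b (0.962), Crxos (0.961), Ccdc117, Meis2, Cgn and Ints3. Ptgfrn, Crxos and Meis2 stood in both sets of 10. Dpp4, a surface peptidase, went from 13.2, 20.0 and 19.2 CPM in 2i to 7.93, 10.6 and 10.4 CPM at 50 µM, and, as for Ly6a, its replicate 1 was the lowest of each six-day group. The transcription factor gene Tfap2a was at 1.90 ± 0.639 CPM before treatment, 20.0 ± 2.94 in 2i alone, 17.8 ± 2.45 with 25 µM and 9.96 ± 2.37 with 50 µM. Cgn, a tight junction protein gene, and Actr3b fell in 2i by 1.98 and 0.56, so a like course over the six-day libraries did not go with a like difference from primed cells. These correlations describe libraries that share a cell line, similar depths and replicate numbers. By Spearman's rho, 4 of the 10 genes over 12 libraries and 3 of the 10 over 9 were again among the first 10.

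**Figure D5:**
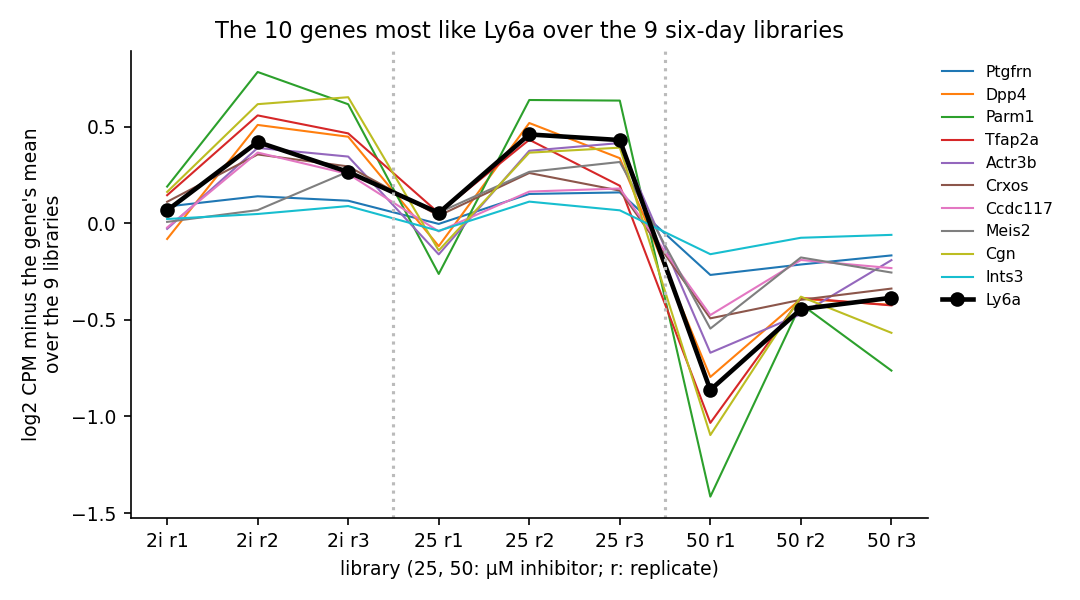
Log2 CPM of Ly6a (black) and the 10 genes most like it over the 9 six-day libraries, each minus its own mean over those libraries (vertical axis), by library (horizontal axis); dotted lines separate 2i, 25 µM and 50 µM. The curves share a drop at 50 µM, and most share a low replicate 1 within each group. Both follow from the choice of the genes by likeness to Ly6a.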

How the data were processed

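The raw counts per gene deposited by the authors, 1 table per library, were used. Libraries were made with a QuantSeq 3′ kit primed with oligo-dT, per the labels' protocols. Per the submitters' processing notes, FastQC, STAR, DESeq2 1.32.0 and GRCm38 were used; which tool counted the reads, with which annotation and strand setting, is not given there. Of 56805 features, 114 spike-ins (2 counts in all) were left out. Symbols were found for 52073 IDs, holding 98.41% of counts.

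Tests used edgeR 4.0.16 (quasi-likelihood) in R 4.3.3 (TMM, filterByExpr, robust dispersion, all 12 libraries in 1 fit), with Benjamini-Hochberg adjustment and calls at an adjusted p below 0.05. The script was checked on simulated data. Log2 CPM used a prior count of 2. DESeq2 1.42.0, limma 3.58.1 voom, other size factors, no filter, fits of 2 groups, a replicate block and leaving out each library were alternatives.

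Ly6a and the 16 gene lists were chosen with earlier results of these data known. Genes were named by rule: Ly6a, tested family members, tested neighbours within 500 kb, the genes of smallest p per list, the MRE11 complex and the 10 genes most like Ly6a. A gene outside it was named where a count was small, its role was close to that of Ly6a or it ranked beside Ly6a. Same-numbered libraries of the six-day groups deviated together in 9 of 9 pairs (r 0.115 to 0.314), which was taken as pairing. The main fit left this pairing out, so its p-values, intervals and shares called at either dose ignore it. With the replicate block, 627 genes were called at 25 µM against 2i in place of 124, and 3240 at 50 µM in place of 1994.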

Additional observations from a re-analysis of the deposited data

How the results depend on the processing

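The difference of Ly6a between 25 µM and 2i was called under none of the 18 alternatives, and it changed sign to −0.04 without 2i replicate 1 and was 0.00 without 25 µM replicate 2. Leaving out 1 library at a time gave −0.04 to 0.19. With the replicate block it was 0.06, with an edgeR adjusted p of 0.703. The described differences of Ly6a ran from 4.37 to 4.57 in 2i, from −0.93 to −0.70 at 50 µM against 2i, and from −0.99 to −0.75 between the doses when 1 library was left out. Genes called at 25 µM against 2i numbered 124, but 268 with no low-count filter, 627 with the replicate block and 29 to 158 when 1 library was left out, with the lowest number without 2i replicate 3. At 50 µM against 2i there were 1994, with 3240 under the block and 1217 to 2181 when 1 library was left out, the lowest without 2i replicate 2. The cause of these shifts was not tested. For 2i against primed cells the replicate numbers were not taken as pairs (r 0.244, 0.136 and 0.091), and the block gave 6294 calls in place of 5346. All 12 libraries, the primed ones included, nevertheless correlated best with their own number. The p-values of that comparison may therefore ignore a pairing as well. The number of superfamily members called in 2i against primed cells and at either dose against 2i stayed within 1.5 times in every alternative; between the doses the single call, Ly6c1, was lost in 7. Among 92 other named genes, 107 calls were lost and 60 gained over all alternatives, beside 4950 that stayed on their side of the threshold. Counts of a few reads limit Ly6c1, Ly6c2 and Ly6k, and shared 3′ sequence limits Ly6c1.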
